A study of Homo sapiens with 4 samples.

Results

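A set of 10 genes that make or remove reactive oxygen and nitrogen species in epithelia were examined in MKN45 cells exposed to Helicobacter pylori lipopolysaccharide (LPS). The genes were NOX1, NOXO1, NOXA1, CYBA, DUOX1, DUOX2, DUOXA2, NOS2, SOD1 and SOD2, and every probe set that the platform annotation gives to one of these symbols alone was taken. This gave 16 of the 54613 probe sets on the arrays, with at least 1 for each of the 10 genes, out of 19775 genes named in this way. MKN45 is a human gastric epithelial line from an adenocarcinoma. LPS is the glycolipid of the outer bacterial membrane. In the LPS group, medium with 10 µg/ml H. pylori LPS replaced the old medium for 8 h, on 2 arrays. The untreated group received fresh medium and was taken at the same time, on 2 arrays. The series speaks of 2 independent experiments with this 1 line and does not name the experiment of each array, so the p-values measure the spread between these arrays.

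The NOX1 enzyme of gastrointestinal epithelium passes electrons from NADPH to oxygen and so makes superoxide. It works with the membrane partner CYBA, the organiser NOXO1 and the activator NOXA1. The dual oxidases DUOX1 and DUOX2 release hydrogen peroxide at the cell surface, and DUOX2 needs the maturation factor DUOXA2 to leave the endoplasmic reticulum. NOS2 is the inducible nitric oxide synthase, and SOD1 in the cytosol and SOD2 in mitochondria turn superoxide into hydrogen peroxide. In many cell types NOS2 and SOD2 are known targets of nuclear factor kappa B (NF-kB), the transcription factor of inflammation that LPS signalling can activate.

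DUOX2 and DUOXA2 lie head to head on chromosome 15, and the stretch between their starts is shown because both genes are read outward from it. RefSeq (GRCh38.p14) gives it as chr15:45114173-45114325, 153 bases on the plus strand, with DUOX2 to the left and DUOXA2 to the right. Capitals mark a TATA box (TATAAA), which begins at position -32 from the DUOXA2 start on that gene's strand. Below it stand 60 bases around the NF-kB consensus motif, in capitals, of CCL20 (chr2:227813738-227813797, plus strand) and of CXCL1 (chr4:73869289-73869348, plus strand), a pair of chemokine genes that rose with LPS in the same arrays.
DUOX2 to DUOXA2: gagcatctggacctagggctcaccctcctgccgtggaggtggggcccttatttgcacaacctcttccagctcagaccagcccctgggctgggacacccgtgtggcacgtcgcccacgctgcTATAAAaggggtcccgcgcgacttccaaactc
CCL20: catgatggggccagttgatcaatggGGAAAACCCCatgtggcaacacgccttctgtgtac
CXCL1: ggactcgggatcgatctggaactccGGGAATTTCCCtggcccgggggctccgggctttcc

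Motifs were searched on both strands in the 250 bases before each start in the RefSeq windows, which hold 11 windows of 8 of the 10 genes. NOS2 and SOD1 had no window, so the counts below do not cover them. The NF-kB consensus motif was found in 0 of the 11 windows, in 3 of 4 chemokine windows (CCL20, CXCL1 and CXCL3) and in 5.21% of all 35116 windows. In the capitals shown for CXCL1, matches on the opposite strands overlap. The GC box (GGGCGG) was found in 7 of the 11 windows, those of NOXA1, CYBA, DUOX1 and SOD2, and in 42.6% of all windows. By gene that is 4 of 8, as SOD2 has more than 1 window. The TATA box was found in 2 of the 11, those of DUOX2 and DUOXA2, which share the same 6 letters, and in 10.7% of all windows. The AP-1 site (TGANTCA) was found in 0 of the 11 and in 6.57% of all windows. Of the 4 chemokine windows, 2 held the GC box, 2 the TATA box and 1 the AP-1 site. A match is a run of letters and no measurement of binding. An absence covers only these 250 bases and this spelling of a motif, and says nothing of sites elsewhere. The window of CXCL8, which also rose with LPS, held no NF-kB match. Whether these motifs bear on the response to LPS was not tested.

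LPS-treated cells were compared with untreated cells to ask whether transcripts of these oxidases and dismutases respond within 8 h. No probe set of the 10 genes changed past the threshold, an adjusted p under 0.05 in limma. Of the 16 probe sets, 13 lay above the level filter, a mean log2 level of 6.06 over the 4 arrays, and these covered 9 of the 10 genes. Among those 13, 0 were called, with a smallest adjusted p of 0.270, and 2 (SOD1 and NOXA1, both lower) had an unadjusted p under 0.05. That is 15.4% of the 13, against 11.7% of the 38229 probe sets tested (3.69% higher and 8.02% lower), of which 0.00785% (3 probe sets, all higher) were called at the adjusted threshold. Called shares were 0.0246% over 16252 genes at 1 probe set each and 0.00549% over all probe sets without the filter, with 0 of the 10 genes in either. After quantile normalization or cyclic loess the calls over all probe sets were 4 higher and 4 lower, and after median centring 6 higher and 11 lower, with 0 of them from the 10 genes. The 13 log2 differences (LPS minus untreated) ran from -0.28 to 0.11 with a median of -0.04, beside a median of -0.0039 over all probe sets tested.

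**Figure D1:**
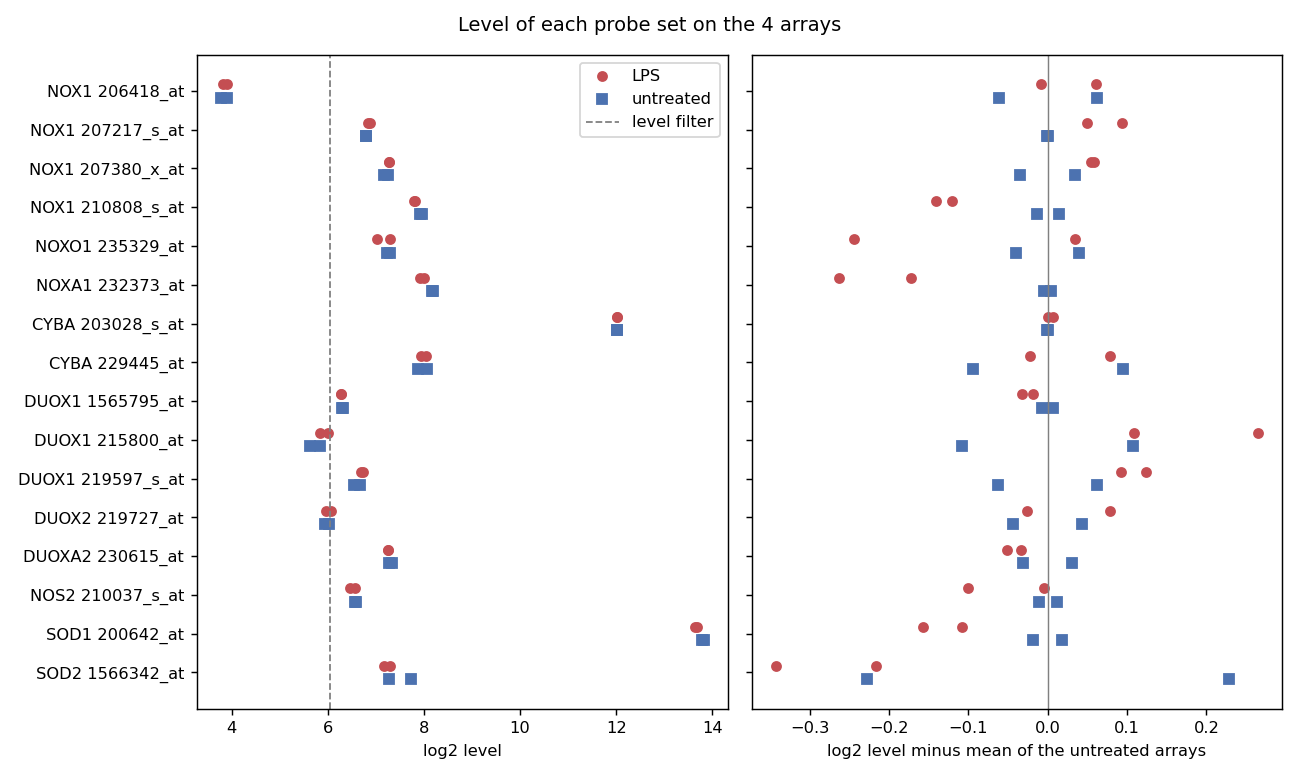
Log2 level of the 16 probe sets of the 10 genes on each array, with LPS arrays as circles and untreated arrays as squares. The left panel gives the level with the filter at 6.06 as a dashed line, and the right panel gives the same values minus the mean of the untreated arrays, where the widest gap is that between the untreated arrays of SOD2.

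Chemokine genes rose on the same arrays. They were chosen with earlier results of these arrays known, so they are no independent control. Probe sets of CCL20, CXCL1 and CXCL8 were the 3 called over all probe sets tested. CCL20, whose product attracts CCR6-bearing lymphocytes, stood at 8.58 ± 0.12 on LPS arrays and 5.65 ± 0.07 on untreated arrays (log2 level, mean ± SD, n = 2 each), 7.61-fold higher (limma adjusted p = 0.000231). CXCL1, a neutrophil attractant, was 3.98-fold higher (limma adjusted p = 0.000674). By contrast, the upper 95% bounds of the fold changes of the 13 probe sets ran from 0.965 to 1.24, and that of all 16 reached 1.35, the bound of a DUOX1 probe set under the filter. The lower bounds of the fold changes of the 16 ran from 0.649 to 0.959. The lower bounds of CCL20, CXCL1, CXCL8 and CXCL3 ran from 1.76 to 6.56. CXCL3 had a limma adjusted p of 0.0579 over probe sets and did not pass. Each chemokine was read at its probe set with the highest mean level. The other CXCL8 probe set was 2.25-fold higher (interval 1.80 to 2.81, limma adjusted p = 0.123) and did not pass.

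**Figure D2:**
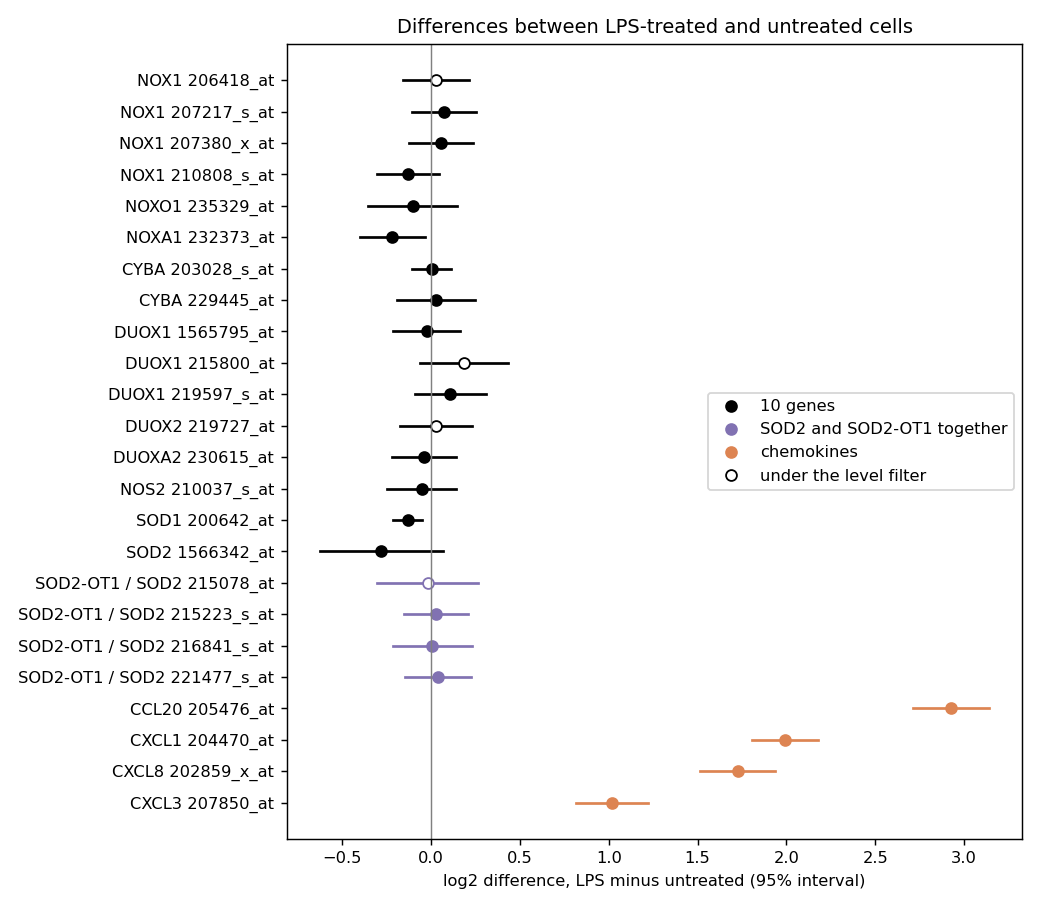
Log2 difference, LPS minus untreated, with its 95% interval for the 16 probe sets of the 10 genes, for 4 probe sets given to SOD2 and SOD2-OT1 together, and for 4 chemokine genes. Filled points lay above the level filter and open points under it. The upper ends of the 16 intervals of the 10 genes reach at most 0.44, and the 4 chemokine intervals begin at 0.82 or above.

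The labelled gastric epithelial identity was checked against markers. Of 15 epithelial markers, 14 lay above the filter, 0 were called, and the mean level of the list was 11.65 on both LPS arrays and 11.60 to 11.64 on untreated arrays. KRT20, a keratin of differentiated gut epithelium, lay under the filter. Of 16 leukocyte markers, 13 had a probe set with 1 symbol, and their mean level was 7.03 to 7.05 on LPS arrays and 7.02 to 7.03 on untreated arrays, with 0 called. Of those 13, 8 lay above the filter and 5 under it, PTPRC, CD14, TYROBP, FCGR3B and S100A12. Besides LYZ, which secretory epithelia also make (12.60 in LPS-treated and 12.74 in untreated cells), the 8 included CD53 at 8.71 ± 0.23 on LPS arrays and 8.39 ± 0.01 on untreated arrays (SD, n = 2 each). CD53, a leukocyte tetraspanin, had a log2 difference of 0.33 that missed the threshold (unadjusted p = 0.0216 and adjusted p = 0.353 in limma). LYZ went the other way, with a log2 difference of -0.15 that also missed it (unadjusted p = 0.0164 and adjusted p = 0.332 in limma). The rest of the 8 were ITGAM, CSF1R, MPO, CYBB, CD3E and LAPTM5. The brightest of these were CD3E (7.90 in both groups) and LAPTM5 (7.79 with LPS and 7.93 untreated). The 9 fibroblast and endothelial markers had 8 above the filter and averaged 7.15 to 7.20 on LPS arrays and 7.05 to 7.17 on untreated arrays, with 0 called. Their single values ran from 5.46 to 9.24 on LPS arrays and 5.21 to 9.20 on untreated arrays. COL1A1 was the highest and CDH5 the lowest. The filter is a cut on level and does not call a transcript present. Array medians were 7.004 to 7.034 and pairs of arrays correlated at 0.996 to 0.998 across probe sets. The 24 probe sets of poly-A spike-ins, bacterial transcripts added before labelling, were all lower on both LPS arrays, with mean levels of 7.98 and 7.92 on LPS arrays and 8.60 and 8.25 on untreated arrays. Their part in the differences below was not tested.

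The level of a probe set depends on its probes as well as on its transcript, and no detection call came with the values, so levels are read within a probe set. NOX1, NOXO1, NOXA1, DUOX1, DUOX2, DUOXA2 and NOS2 together spanned 3.83 to 8.00 on LPS arrays and 3.78 to 8.18 on untreated arrays. Whether the low oxidase and NOS2 probe sets report transcript or background was not tested.

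NOX1, the catalytic subunit, had 4 probe sets that did not move one way. One of them (206418_at) lay at 3.83 and 3.90 on LPS arrays and 3.78 and 3.90 on untreated arrays, at the 1.11 percentile of all probe sets in untreated cells and far under the filter. The probe set 207217_s_at read 6.88 and 6.84 on LPS arrays and 6.79 and 6.79 on untreated arrays, a log2 difference of 0.07 with a 95% interval of -0.11 to 0.25. Both LPS arrays were above both untreated arrays there and also for 207380_x_at, at 7.27 and 7.26 with LPS and 7.24 and 7.17 untreated. On 210808_s_at the order was the opposite, with 7.80 and 7.82 on LPS arrays and 7.92 and 7.95 on untreated arrays, a log2 difference of -0.13 (interval -0.31 to 0.04). None passed (limma adjusted p = 0.755, 0.812 and 0.527 for the 3 above the filter). These 3 end in _s_at or _x_at, the types that can bind transcripts of more than 1 gene or form.

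The partners of NOX1 were the activator, the organiser and the membrane subunit. NOXA1, the activator, read 7.91 and 8.00 on LPS arrays and 8.18 and 8.17 on untreated arrays. Both LPS arrays were below both untreated arrays, by a log2 difference of -0.22 (0.860-fold, interval 0.758 to 0.976), and the adjusted p was 0.366 in limma. With 1 array left out, the log2 difference of NOXA1 was -0.26 to -0.17. NOXO1, the organiser, read 7.30 and 7.02 on LPS arrays and 7.30 and 7.22 on untreated arrays, so LPS replicate 1 lay among the untreated arrays and LPS replicate 2 below them. Its log2 difference of -0.10 (interval -0.36 to 0.15) rested on LPS replicate 2, and without that array it was 0.034.

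CYBA, which stabilises NOX1 in the membrane, had the narrowest spread of the 10 genes on its brighter probe set. It read 12.01 and 12.02 on LPS arrays and 12.01 and 12.01 on untreated arrays, at the 97.3 percentile of all probe sets in untreated cells. The log2 difference was 0.0033 with an interval of -0.11 to 0.11, which is 0.929-fold to 1.08-fold for this probe set in this fit. Median centring turned this difference to -0.011. The other CYBA probe set read 8.05 and 7.95 on LPS arrays and 7.87 and 8.06 on untreated arrays, which overlap, with a log2 difference of 0.03 (interval -0.19 to 0.25). Its sign turned when LPS replicate 1 (-0.022) or untreated replicate 1 (-0.066) was left out.

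DUOX1 had 3 probe sets. The probe set 219597_s_at read 6.70 and 6.73 on LPS arrays and 6.54 and 6.67 on untreated arrays, higher on both LPS arrays by a log2 difference of 0.11 (interval -0.09 to 0.31, limma adjusted p = 0.648). The probe set 215800_at lay under the filter at 5.85 and 6.00 on LPS arrays and 5.63 and 5.84 on untreated arrays, with a log2 difference of 0.19. It was also separated, by 0.0016 between the nearest arrays. The probe set 1565795_at read 6.28 and 6.27 on LPS arrays and 6.30 and 6.31 on untreated arrays, separated the other way by a log2 difference of -0.03. None was called.

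DUOX2, the dual oxidase of gut epithelium that opposes microbes, had 1 probe set, just under the filter. It read 6.06 and 5.96 on LPS arrays and 5.94 and 6.03 on untreated arrays. The arrays overlapped, and the log2 difference was 0.03 (interval -0.18 to 0.23, adjusted p = 0.952 in limma without the filter). Its maturation factor DUOXA2, on the other side of the stretch printed above, read 7.26 and 7.24 on LPS arrays and 7.26 and 7.33 on untreated arrays. The LPS arrays were lower by a log2 difference of -0.04 (interval -0.22 to 0.14, limma adjusted p = 0.867), with the nearest arrays 0.0020 apart.

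NOS2 had 1 probe set, 210037_s_at. It read 6.56 and 6.47 on LPS arrays and 6.58 and 6.56 on untreated arrays. The arrays overlapped, and the log2 difference was -0.05 (interval -0.25 to 0.14, limma adjusted p = 0.841). The upper end of this interval was 1.10-fold in this fit, which is no limit on a rise of NOS2 itself. The probe set is of the _s_at type, which can bind transcripts of more than 1 gene or form. Whether it reports the NOS2 transcript was not tested.

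SOD1, the cytosolic dismutase, read 13.69 and 13.64 on LPS arrays and 13.82 and 13.78 on untreated arrays, at the 99.5 percentile in untreated cells. Both LPS arrays were lower, by a log2 difference of -0.13 (0.912-fold, interval 0.863 to 0.965), with an unadjusted p of 0.00604 and an adjusted p of 0.270 in limma over all probe sets tested. Without the intensity trend the unadjusted p was 0.102. With 1 array left out it was 0.00443 to 0.0676, and the log2 difference was -0.16 to -0.11. Bright probe sets were lower in general. In the brightest of 10 bins of level above the filter, which holds SOD1, the median log2 difference was -0.03. In the faintest of these bins it was 0.02. The SOD1 difference was larger in size than the median of its bin, and a part of level in it was not tested.

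SOD2, the mitochondrial dismutase, had 1 probe set with its symbol alone, 1566342_at. It read 7.16 and 7.29 on LPS arrays and 7.74 and 7.28 on untreated arrays, and the arrays overlapped. Its log2 difference of -0.28 (interval -0.62 to 0.07, limma adjusted p = 0.495) was the largest in size of the 16 and rested on untreated replicate 1. Without that array the log2 difference was -0.05, and without untreated replicate 2 it was -0.51. The 3 genes whose log2 levels followed this probe set most closely over the 4 arrays were CREBRF (Pearson r = 0.991), SDHAF4 (0.989) and LZTFL1 (0.988), out of 605 probe sets above the filter that varied at least as much. All 3 were highest on untreated replicate 1, and 4 arrays leave such an r with little meaning.

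A further 4 probe sets are given to SOD2 and SOD2-OT1 together, so they were no members and name neither gene. Which of the SOD2 probe sets best reports the SOD2 transcript was not tested, so -0.28 on 1566342_at is the value of 1 probe set and not of SOD2 as a whole. The 3 of them above the filter had log2 differences of 0.0074, 0.03 and 0.04, with LPS and untreated arrays overlapping on each. Their mean levels were 8.33, 8.62 and 9.13 on LPS arrays and 8.32, 8.59 and 9.09 on untreated arrays. The upper bounds of their fold changes ran from 1.15 to 1.17 (limma adjusted p = 0.888 to 0.988).

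Both LPS arrays lay beyond both untreated arrays in 9 of 16 (56.2%), 4 higher and 5 lower, against 40.6% of all 54613 probe sets. Above the filter the counts were 8 of 13 and 43.3% of those tested. Probe sets of the same gene are not independent of each other. Those of NOX1 and of DUOX1 entered the count more than once, and in both directions. The gap between the arrays of a group, in log2 level, was 0.0048 to 0.28 for LPS and 0.0014 to 0.46 for untreated cells over the 16.

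**Figure D3:**
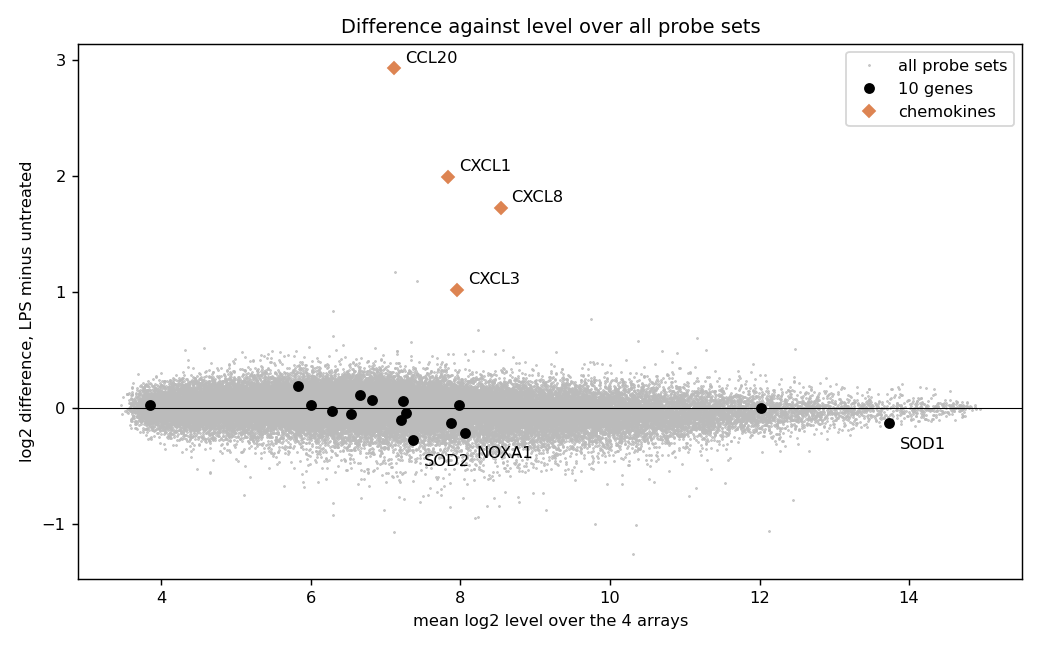
Log2 difference, LPS minus untreated, against mean log2 level over the 4 arrays for all 54613 probe sets (grey), the 16 probe sets of the 10 genes (black) and 4 chemokine genes (diamonds). The black points lie within the grey band at every level, SOD1 at the bright end among them, and the chemokines lie far above it.

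Other genes of these pathways were read at the probe set with the highest mean level, from lists written from textbook knowledge. Of the other NADPH oxidase subunits, 8 of 10 genes had a probe set and 5 lay above the filter, and limma called 0 of them, with 0 at an unadjusted p below 0.05. Their log2 differences ran from -0.11 to 0.12 with a median of 0.0061. RAC1, a small GTPase that activates NOX1, differed by -0.06 (13.22 ± 0.0084 with LPS, 13.28 ± 0.02 untreated, limma adjusted p = 0.530), and its other probe sets differed by -0.12, -0.11 and 0.0071. RAC2, its relative of blood cells, differed by 0.12 on the log2 scale (limma adjusted p = 0.573) and by -0.0017 on its other probe set.

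Of the genes that remove peroxide and superoxide, 18 of 19 were measured, all above the filter, and limma called 0. At an unadjusted p below 0.05 there were 1 higher and 1 lower. The median log2 difference was -0.05. GPX1, a glutathione peroxidase, stood at 12.40 ± 0.05 with LPS and 12.55 ± 0.02 untreated, a log2 difference of -0.15 (limma adjusted p = 0.315). SOD3, the extracellular dismutase, stood at 7.74 ± 0.07 with LPS and 7.44 ± 0.18 untreated, a log2 difference of 0.30 (limma adjusted p = 0.350), on an _x_at probe set. Neither passed.

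All 17 genes of the nitric oxide and arginine pathway lay above the filter, and limma called 0. At an unadjusted p below 0.05 there were 2 higher and 0 lower. The median log2 difference was -0.0013. GUCY1A1, a subunit of the nitric oxide receptor guanylate cyclase, differed by 0.31 (7.08 ± 0.14 with LPS, 6.77 ± 0.10 untreated, limma adjusted p = 0.331), while its other 3 probe sets, under the filter, differed by -0.18, 0.07 and 0.29. NOS3, the endothelial synthase, differed by 0.22 (8.91 ± 0.03 with LPS, 8.69 ± 0.0063 untreated, limma adjusted p = 0.347), and its other probe set, under the filter, by -0.07. GCH1, which makes the cofactor of nitric oxide synthases, differed by -0.03 (named after its value was seen).

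**Figure D4:**
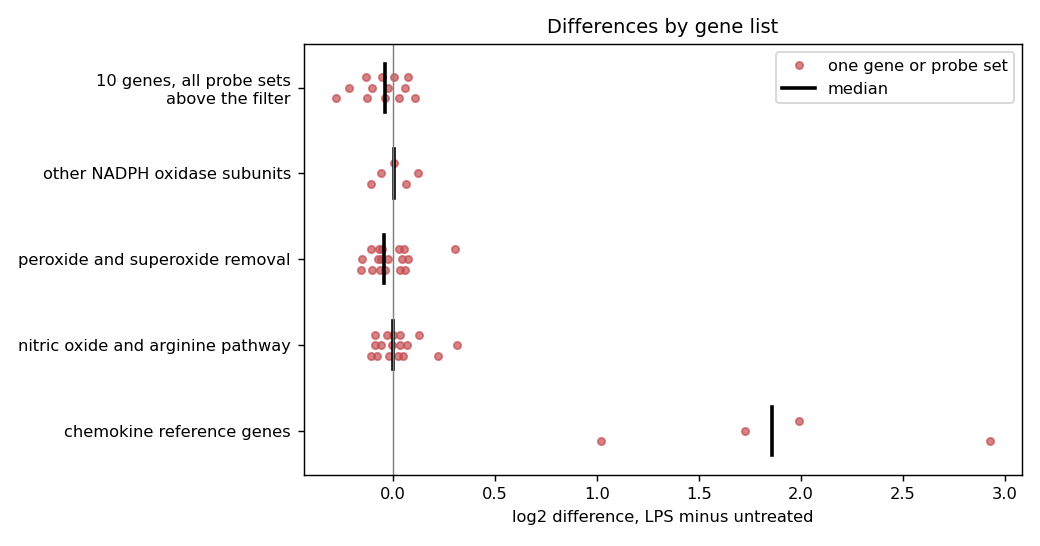
Log2 difference, LPS minus untreated, of the 13 probe sets of the 10 genes above the filter and of the genes above the filter in 4 lists, with the median of each as a black bar. The medians of the 10 genes and of the 3 pathway lists lie within 0.05 of 0, and the 4 chemokine genes lie above 1.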

How the data were processed

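The authors deposited log2 levels (log2 as judged from their range) for 54675 probe sets on 4 Affymetrix arrays. MAS5 and RMA are both named per the submitters' processing notes, and which of them made the values is not given in the sources used here. The arrays have nearly equal distributions, which hides a shift of all transcripts. The 62 control probe sets were left out. The platform annotation gave 1 symbol to 41091 probe sets, several to 1801 and none to 11721, and 41037 of the first matched RefSeq (GRCh38.p14) by Entrez identifier.

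Groups followed the sample titles. A filter removed probe sets with a mean under the 30 percentile (6.06) and kept 38229. The fit used limma 3.58.1 in R 4.3.3 (lmFit, and eBayes with an intensity trend), two-sided, with Benjamini-Hochberg adjustment over all probe sets tested and 95% intervals. Probe sets under the filter were fitted together with all others. The procedure was tested on simulated data. The number of arrays limits the precision.

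All 10 genes were named, and in each pathway list the 2 with the smallest p. The genes, lists and tests were chosen with earlier results of these data known. The alternatives were a filter at the 50 percentile or none, 3 other scalings (quantile, median, cyclic loess), eBayes without the trend or robust, a replicate block, an adjusted p under 0.1, 1 probe set per gene, and each array left out.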

Additional observations from a re-analysis of the deposited data

How the results depend on the processing

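The count of probe sets of the 10 genes past the limma threshold was 0 under each alternative listed, and the count of genes was 0 with 1 probe set per gene. The count over all probe sets, 3, moved to 5 with the filter at the 50 percentile and with robust eBayes, to 8 after quantile normalization or cyclic loess, to 17 after median centring and to 9 at an adjusted p under 0.1. With 1 array left out it was 2 to 11, and the 11 came without untreated replicate 1. With the replicate block it was 3, and 0 of the 10 genes passed (smallest limma adjusted p = 0.179). Whether the numbers pair the arrays is not stated, and deviations of same-numbered arrays correlated at 0.154 across probe sets, with only 2 pairs. Of 152 single differences recomputed, 148 kept their direction and their side of the threshold. A change of filter, of eBayes setting or of replicate block leaves the difference itself as it is. Only the 3 other scalings and the left-out arrays could turn a sign. A change of size alone, as for SOD2 without untreated replicate 1 (-0.05), was not counted. The 4 that turned were CYBA on 203028_s_at after median centring (-0.011), CYBA on 229445_at without LPS replicate 1 (-0.022) and without untreated replicate 1 (-0.066), and NOXO1 without LPS replicate 2 (0.034). With 1 array left out, the range was -0.066 to 0.12 for that CYBA probe set and -0.24 to 0.034 for NOXO1. The cause was not tested.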
